A study of Mus musculus with 10 samples.

Results

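Hearts of young mice held RNA of a set of 10 genes that are known from the epithelium of the lung: Sftpa1, Sftpb, Sftpc, Sftpd, Lamp3, Scgb1a1, Ager, Aqp5, Cldn18 and Nkx2-1. The set was chosen by name, on earlier readings of these same tables in which its genes stood out, so the values given for them are a description and no test of them is drawn on. All 10 had a row in each of the 3 tables, out of 17575 genes in any table. The hearts came from male mice at 1 week of age, in 3 genotypes: Ft1ko (n = 3), Ft1sm22ko (n = 4) and WT (n = 3). Ft1ko mice lack Ft1 in the whole body, after a floxed Ft1 allele was crossed with CMV-cre. Ft1sm22ko mice carry the same floxed allele with a Cre driven by the promoter of sm22 (Tagln), which is active in smooth muscle. WT mice are the controls of both. Ft1 is listed in the tables as Aktip. Each table compares one pair of genotypes and holds, for every gene, a mean over the hearts of both groups, a log2 fold change and its standard error (SE). Group means were worked out from these, in counts normalized for library depth, and values per heart were not analysed here. Each heart was a separate animal.

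The inner surface of the lung is lined by a thin epithelium. Alveolar type 2 cells make surfactant, a film of lipid and protein that keeps the air sacs from collapsing, and store it in organelles called lamellar bodies. Alveolar type 1 cells are flat cells across which gas is exchanged. Club cells are secretory cells of the small airways. None of these cell types belongs to the heart, and the RNA of the 10 genes is taken as a mark of lung epithelium. The mark is not exclusive, as Aqp5 is also known from glands, Nkx2-1 from the thyroid, Cldn18 from the stomach and Lamp3 from dendritic cells. Ager had the highest mean of the set in WT hearts, 233.7 in the comparison with Ft1ko and 319.9 in that with Ft1sm22ko. Which cells of the WT hearts held the RNA of Ager was not tested.

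In Ft1ko hearts every one of the 10 genes lay above WT, by log2 folds of 3.54 to 11.74 with a median of 8.19, against a median of 0.13 over all genes tested. In Ft1sm22ko hearts the same genes were nearer to WT, with a median of 2.31 (0.06 over all genes), and Ager lay below it. Between the mutants all 10 were lower in Ft1sm22ko than in Ft1ko, with a median of -5.90 (-0.05 over all genes). The summed mean of the 10 genes was 51614 normalized counts in Ft1ko hearts and 443 in WT, or 0.633% of the signal of all genes in Ft1ko and 0.00252% in WT. In the second comparison it was 3898 in Ft1sm22ko and 608 in WT. In the direct comparison of the mutants it was 6120 in Ft1sm22ko and 111845 in Ft1ko. Each pair of groups was normalized on its own, so levels are compared only within a table. The 2 comparisons with WT share the WT hearts, and their values are therefore given side by side. In bulk RNA of a whole organ, fewer or more cells of a type cannot be told apart from less or more RNA per cell.

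**Figure D1:**
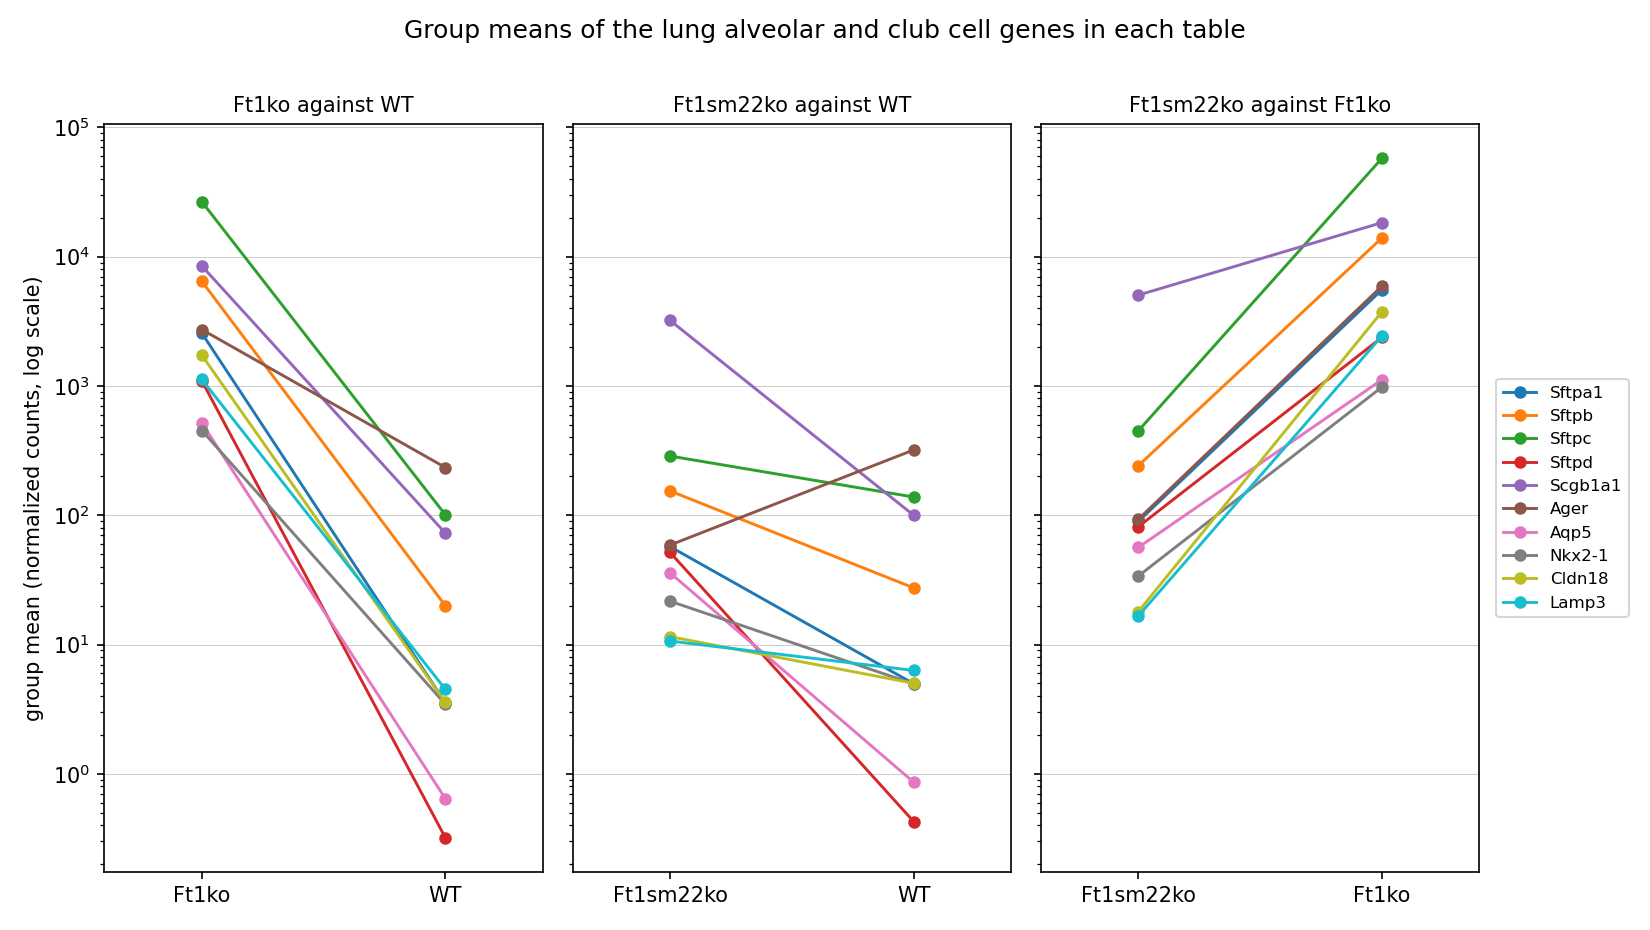
Group mean of each gene in normalized counts on a log axis, 1 panel for each table and 1 line for each gene, with no error bars because the tables hold no values per heart. In the left panel all 10 genes are higher in Ft1ko than in WT, in the middle panel Ager alone is lower in Ft1sm22ko (58.8) than in WT (319.9), and in the right panel all 10 are lower in Ft1sm22ko than in Ft1ko.

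The tables treat these genes differently as to p-values. The authors' tool withholds the p of a gene when a single heart has an extreme count for it. In Ft1ko against WT all 10 genes had a p, and all 10 passed a Benjamini-Hochberg adjusted p under 0.05 as higher, where 19.7% of all genes tested passed as higher and 16.1% as lower. In Ft1sm22ko against WT only Aqp5 had a p, and it passed as higher, where 16.2% of all genes passed as higher and 16.0% as lower. The other 9 had none, in a table where 277 genes, or 1.64%, had none. In Ft1sm22ko against Ft1ko all 10 had a p, and Sftpb, Ager, Aqp5 and Lamp3 passed as lower, where 9.00% of all genes did. With Bonferroni adjustment only Sftpd and Aqp5 passed in Ft1ko against WT, none in Ft1sm22ko against WT and only Ager between the mutants. The share of all genes that passed with Bonferroni adjustment was not worked out here, so these counts have no background beside them. Since the genes were chosen on these tables, nothing is read from these counts.

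The promoters of the set are shown where they help to place it. NKX2-1, itself 1 of the 10, is a homeodomain transcription factor of lung epithelium that is known to act on surfactant promoters, and forkhead factors such as FOXA1 and FOXA2 act there too. Promoter sequences from RefSeq on build GRCm38.p6 matched 7 of the 10 genes, with 8 promoters because Cldn18 has more than 1 start. Each was searched on both strands over the 250 bases before the start for CTCAAG (on the other strand CTTGAG), the core of the NKX2-1 motif, and for TGTTTGC, a forkhead motif that reads GCAAACA on the other strand. The matches do not overlap each other. The core was found in 2 of 8 promoters of the set and in 13.3% of all 32851 promoters, and the forkhead letters in 3 of 8 (Sftpb and both of Cldn18) and in 4.30%. The windows that hold a core, the Cldn18 window with the forkhead letters nearest its start, and the Ager window, which holds neither, are printed with the matches in capitals.
Sftpa1, chr14:41131538-41131787, plus strand: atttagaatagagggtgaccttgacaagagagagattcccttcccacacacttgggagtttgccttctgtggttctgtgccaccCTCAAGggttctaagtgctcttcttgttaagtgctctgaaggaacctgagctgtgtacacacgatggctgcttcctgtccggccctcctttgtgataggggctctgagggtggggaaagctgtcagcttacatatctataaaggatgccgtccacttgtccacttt
Sftpb, chr6:72304360-72304609, plus strand: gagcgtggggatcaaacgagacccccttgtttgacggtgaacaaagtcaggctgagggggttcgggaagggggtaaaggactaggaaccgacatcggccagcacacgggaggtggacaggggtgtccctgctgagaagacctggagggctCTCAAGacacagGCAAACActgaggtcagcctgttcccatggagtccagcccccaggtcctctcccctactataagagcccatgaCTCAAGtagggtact
Cldn18, chr9:99710064-99710313, minus strand: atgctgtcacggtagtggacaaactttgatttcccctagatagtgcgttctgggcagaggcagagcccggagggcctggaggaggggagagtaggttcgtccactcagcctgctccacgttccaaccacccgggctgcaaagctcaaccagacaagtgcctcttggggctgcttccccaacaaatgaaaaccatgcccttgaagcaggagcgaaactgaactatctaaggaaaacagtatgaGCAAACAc
Ager, chr17:34597600-34597849, plus strand: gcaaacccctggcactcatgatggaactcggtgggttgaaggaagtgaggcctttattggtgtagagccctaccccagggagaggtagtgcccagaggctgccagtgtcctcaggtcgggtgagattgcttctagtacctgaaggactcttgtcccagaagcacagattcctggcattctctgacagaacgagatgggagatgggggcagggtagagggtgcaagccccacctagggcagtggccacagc
In Sftpa1 the core begins at position -166 from the start. In Sftpb it begins at -100 and again at -15, with the forkhead letters between them at -88. In Cldn18 the forkhead letters begin at -8 in the window shown and at -211 before the other start. A match of letters is a description and does not show a site that a factor occupies.

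Sftpa1 and Sftpd encode the surfactant collectins, proteins of innate defence that bind sugars on microbes and are secreted into the air space. Sftpa1 had a mean of 2554 normalized counts in Ft1ko hearts and 3.54 in WT, a log2 fold of 9.50 (SE 2.61). It had 57.2 in Ft1sm22ko and 4.98 in WT, a log2 fold of 3.52 with an SE of 3.25, so that the difference was about as large as its error. Between the mutants Sftpa1 stood at 89.5 in Ft1sm22ko and 5538 in Ft1ko. Sftpd was close to absent from WT hearts. Its mean was 1094 in Ft1ko and 0.319 in WT, and summed over the 3 WT hearts the WT value came to about 1 normalized count. On that count the ratio was 3424, with a 95% Poisson interval of 589 to 129587 for counting error only. In the other comparison Sftpd had 51.6 in Ft1sm22ko and 0.428 in WT, a ratio of 120.5. The Poisson interval of 27.8 to 6110 again covers counting error only. The log2 fold of Sftpd there was 6.91, with no p. Its SE of 3.68, which takes in the spread between hearts, was the largest of the set. The 95% interval from that SE, -0.30 to 14.12 on the log2 scale, included no change. The direct comparison gave 81.5 in Ft1sm22ko and 2371 in Ft1ko.

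Sftpb and Sftpc encode the small hydrophobic surfactant proteins that spread the lipid film. Sftpc, the gene most particular to alveolar type 2 cells, had the highest level of the set per exonic length in Ft1ko. It reached 26536 normalized counts in Ft1ko hearts and 101 in WT, a log2 fold of 8.04 (SE 2.74). In Ft1sm22ko it was 287, against 138 in WT, a log2 fold of 1.05 with an SE of 3.24. Between the mutants it differed by a log2 fold of -7.00 (SE 2.74), with 449.8 in Ft1sm22ko and 57514 in Ft1ko. Sftpb had 6429.7 in Ft1ko and 19.9 in WT (log2 fold 8.33, SE 2.44). It had 154 in Ft1sm22ko and 27.4 in WT (log2 fold 2.49, SE 2.48). In the direct comparison Sftpb was at 242 in Ft1sm22ko and 13931 in Ft1ko, a log2 fold of -5.85 (SE 2.19). In Ft1sm22ko against WT the log2 folds of both genes were thus no larger than about 1 SE.

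Lamp3 encodes a membrane glycoprotein of lamellar bodies. It had 1121 normalized counts in Ft1ko hearts and 4.50 in WT, a log2 fold of 7.96 (SE 2.83). Its Ft1sm22ko mean of 10.6 lay close to the WT mean of 6.30, with a log2 fold of 0.76 (SE 3.53), the smallest difference from WT in the set. In Ft1sm22ko it stood at 16.6, which is 0.684% of the 2432 found in Ft1ko. The tight junction gene Cldn18, whose lung form seals the alveolar epithelium, had 1725 in Ft1ko and 3.57 in WT, and 11.5 in Ft1sm22ko and 5.02 in WT. Its Ft1sm22ko mean, 18.0, was 0.480% of the 3739.9 in Ft1ko, the lowest share in the set.

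Scgb1a1, the secretoglobin that club cells release as their main product, kept the largest share of its Ft1ko level in Ft1sm22ko. It had 8459 normalized counts in Ft1ko hearts and 72.5 in WT, a log2 fold of 6.87 (SE 1.82). In Ft1sm22ko it had 3209.9, against 99.95 in WT, a log2 fold of 5.01 (SE 2.33), although the table gave no p for it. Per exonic length its Ft1sm22ko level was the highest of the set in that group. Between the mutants Scgb1a1 stood at 5040.2 in Ft1sm22ko and 18315 in Ft1ko, a log2 fold of -1.86 with an SE of 1.97. By group means alone, Ft1sm22ko stood at 27.5% of the Ft1ko level for Scgb1a1 and between 0.480% and 5.05% for the other 9 genes. The difference of Scgb1a1 between the mutants did not pass. Its contrast with the other 9 genes was not tested, and a single heart may weigh heavily in its Ft1sm22ko mean.

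Ager and Aqp5 mark alveolar type 1 cells, Ager as a receptor for advanced glycation end products and Aqp5 as a water channel. Ager was the 1 gene of the set whose means lay on opposite sides of WT in the mutants. It had 2727 normalized counts in Ft1ko hearts and 233.7 in WT, a log2 fold of 3.54 (SE 1.49), the smallest of the set. In Ft1sm22ko it had 58.8, against 319.9 in WT, a log2 fold of -2.44 (SE 1.16) for which the table gave no p. Between the mutants it was 93.0 in Ft1sm22ko and 5909 in Ft1ko, a log2 fold of -5.99 (SE 1.27). Rnf5 and Pbx2 lie 155 and 462 bases from Ager in GENCODE M21 and were looked up after the values of Ager were seen. Rnf5 had log2 folds of -0.43 (SE 0.32) in Ft1ko and -0.51 (SE 0.22) in Ft1sm22ko against WT. Pbx2 had 0.19 (SE 0.24) and -0.43 (SE 0.16), and neither passed the threshold in Ft1ko, while Pbx2 passed as lower in Ft1sm22ko.

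Aqp5, like Sftpd, was near 0 in WT. Its mean was 515 normalized counts in Ft1ko hearts and 0.642 in WT, about 2 counts over the 3 WT hearts, which gives a ratio of 803 with a 95% Poisson interval of 214 to 6382. In Ft1sm22ko it had 35.8, against 0.862 in WT, a ratio of 41.6. By the scaling of this comparison the same 3 WT hearts came to about 3 normalized counts. A Poisson interval on 3 counts is 12.3 to 174, and it would be wider on the 2 counts found above. Among the 10 genes Aqp5 was the 1 with a p in this comparison, with a log2 fold of 5.38 (SE 1.57). Between the mutants it had 56.3 in Ft1sm22ko and 1116 in Ft1ko.

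Nkx2-1, the transcription factor needed to form the lung and the thyroid, had the lowest level per exonic length of the set in Ft1ko. It had 452 normalized counts in Ft1ko hearts and 3.45 in WT, a log2 fold of 7.03 (SE 2.12). In Ft1sm22ko it had 21.6, against 4.96 in WT, a log2 fold of 2.12 (SE 2.94). The direct comparison gave 33.9 in Ft1sm22ko and 979 in Ft1ko. Nkx2-1 and Cldn18 each overlap a gene on the opposite strand, Gm26973 and Gm16004. The libraries kept strand, and the strand setting of the counting is not given in the sources used here.

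**Figure D2:**
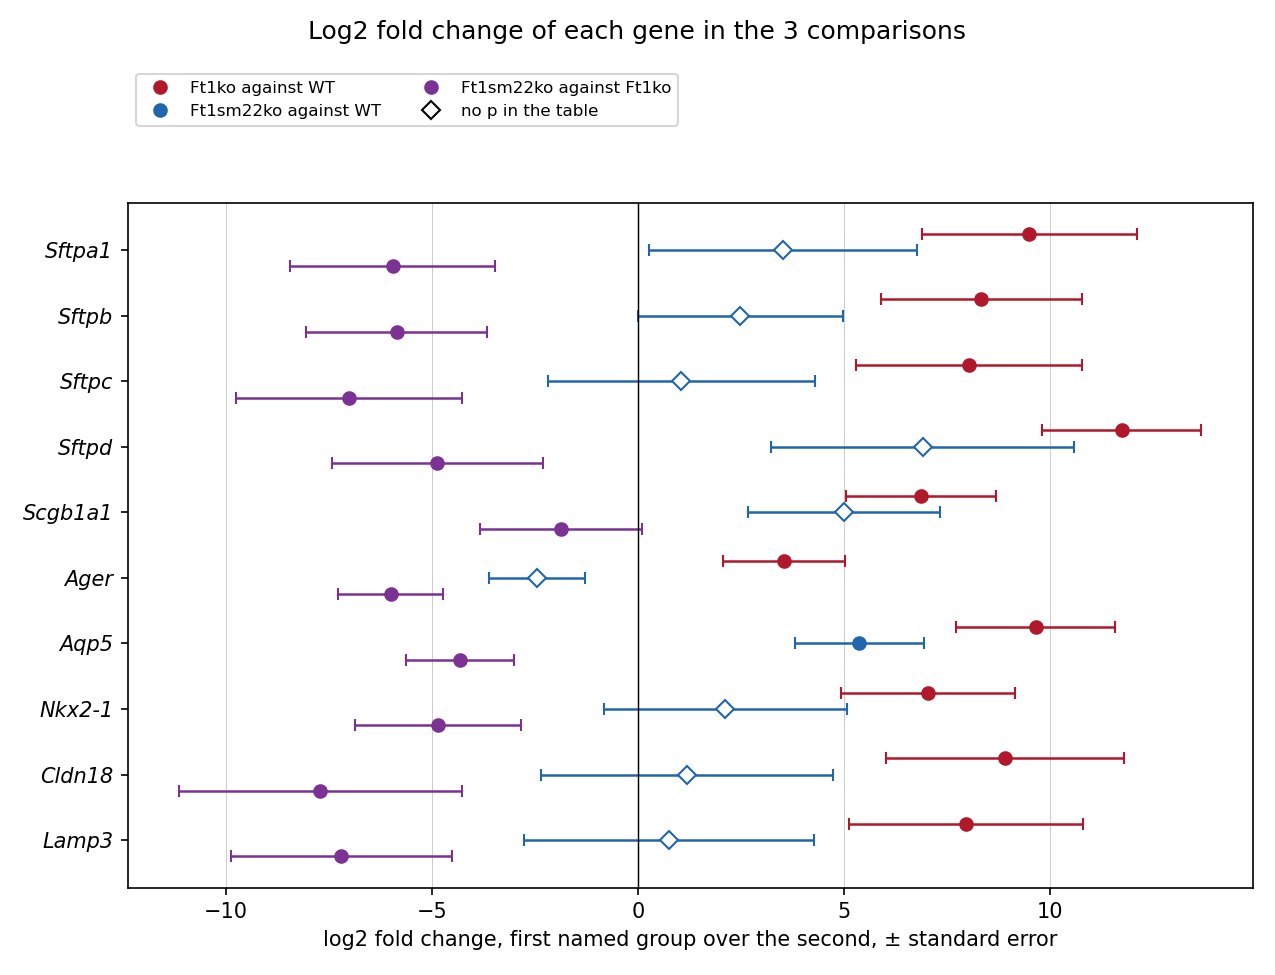
Log2 fold change of each gene (horizontal axis) in the 3 comparisons, with bars of 1 SE to either side and open diamonds where the table gave no p. All red points (Ft1ko against WT) lie between 3.54 and 11.74, the blue points (Ft1sm22ko against WT) lie between -2.44 and 6.91 with 9 of 10 open, and all purple points (Ft1sm22ko against Ft1ko) lie between -7.70 and -1.86.

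Divided by exonic length, the order of the genes differed between the groups. In Ft1ko, in the table with WT, Sftpc led with 25664 normalized counts per kilobase, followed by Scgb1a1 with 17771, Sftpb with 3267, Ager with 1274, Sftpa1 with 893, Sftpd with 452, Cldn18 with 387, Lamp3 with 334, Aqp5 with 198 and Nkx2-1 with 159. In Ft1sm22ko, in its table with WT, Scgb1a1 led with 6743 per kilobase, ahead of Sftpc with 277, Sftpb with 78.3 and Ager with 27.5. Sftpd, Sftpa1 and Aqp5 followed there with 21.3, 19.98 and 13.8, and Nkx2-1, Lamp3 and Cldn18 closed the order with 7.61, 3.17 and 2.58. In WT of the Ft1ko table Scgb1a1 had 152, Ager 109, Sftpc 97.2 and Sftpb 10.1 per kilobase, and the other 6 lay between 0.132 and 1.34. The surfactant gene Sftpc thus came before Scgb1a1 in Ft1ko and after it in Ft1sm22ko and WT. The SD between hearts, described next, was larger than the mean for every gene, and the order was not tested.

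The SE of each gene implies a dispersion, the squared coefficient of variation between hearts of a group beyond counting noise, shared by both groups of a table. It was high for the whole set. In Ft1ko against WT it ran from 1.59 for Ager to 5.88 for Cldn18, with a median of 3.68, where the genes that averaged 100 normalized counts or more had a median of 0.0782. In Ft1sm22ko against WT the median was 7.80, against 0.0498 for such genes, and between the mutants 4.52, against 0.0437. Only 3 of the 10 genes averaged 100 or more in Ft1sm22ko against WT, and dispersion is higher at low means. Genes whose mean lay within a factor of 2 of a member there had median dispersions of 0.0430 (for Scgb1a1) to 0.661 (for Cldn18). In Ft1sm22ko against WT, Sftpd, Cldn18 and Lamp3 had values within 2% of 10, as did 47 genes of that table in all. A value of 10 is taken here as the upper limit of the fit, so values there may understate the spread. The lowest values in each table were those of Ager and Aqp5, except that Sftpd (1.69) lay below Aqp5 (1.88) in Ft1ko against WT. Set beside genes whose mean lay within a factor of 2, at most 0.527% of genes exceeded the dispersion of a member in Ft1ko against WT. At most 0.782% did between the mutants, and at most 6.83%, for Aqp5, in Ft1sm22ko against WT. A dispersion of 3.68 corresponds to an SD between hearts of 1 group that is larger than their mean. Which hearts were high, and how many, was not analysed here.

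**Figure D3:**
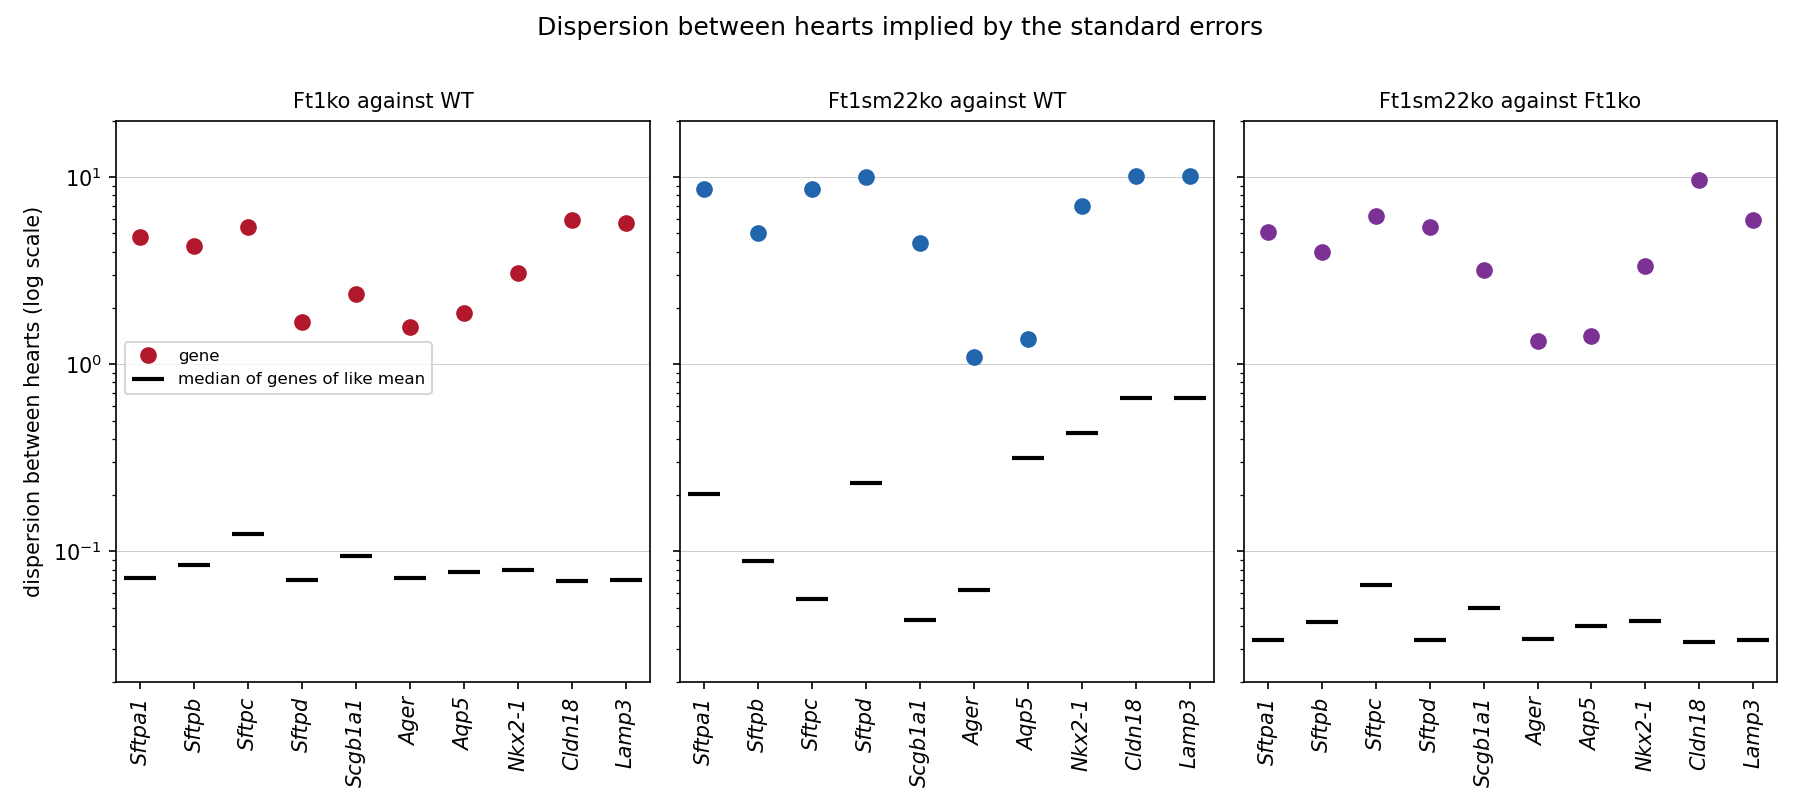
Dispersion between hearts of each gene on a log axis (points), with the median of all genes of the same table whose mean lies within a factor of 2 (bars). Every point lies above its bar in all 3 panels, with Ager and Aqp5 among the lowest points. In Ft1sm22ko against WT, Sftpd, Cldn18 and Lamp3 lie within 2% of 10, taken as the upper limit of the fit.

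Each group appears in 2 tables, which allowed its means to be read again. Ft1ko means were 2.17 times as high in the table of both mutants as in the table with WT for every member, against a median of 2.16 over genes that averaged 100 or more in both tables. For Ft1sm22ko the ratio was 1.56 to 1.58 (1.61 over such genes) and for WT 1.34 to 1.44 (1.35). The direct log2 folds between the mutants differed by at most 0.056 from those computed through WT. The second reading uses the same hearts, so it checks the arithmetic only.

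RNA of the targeted gene went with the labels. Aktip was lower by a log2 fold of -1.93 (SE 0.27) in Ft1ko and -1.21 (SE 0.27) in Ft1sm22ko against WT, and higher by 0.72 (SE 0.28) in Ft1sm22ko than in Ft1ko. Of 8 cardiomyocyte markers, 7 fell in Ft1ko against WT and the eighth, Myl2, had a log2 fold of -2.65 without passing (median -2.58), with a summed mean of 271431 against 1465580 normalized counts. In Ft1sm22ko 7 of 8 fell against WT, and Actc1 had -0.09 (SE 0.42) without passing (median -1.40), with a sum of 786626 against 1972880. Between the mutants all 8 had a higher mean in Ft1sm22ko, and Tnni3, Actc1, Ryr2, Ttn and Mybpc3 passed (median 1.23). Over all genes 16.1% passed as lower in Ft1ko and 16.0% in Ft1sm22ko against WT, and 10.8% as higher in Ft1sm22ko between the mutants. In all 3 tables the muscle markers thus had their lower sum where the lung genes had their higher one. In Ft1sm22ko against WT, Scgb1a1 made up 3210 of the lung sum of 3898 in Ft1sm22ko. The part of the muscle markers in the values of the lung genes was not tested.

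Other markers of the lung, grouped by cell type, were counted at the same threshold. Of all genes tested, 19.7% passed as higher and 16.1% as lower in Ft1ko against WT. The shares were 16.2% and 16.0% in Ft1sm22ko against WT, and 10.8% and 9.00% in Ft1sm22ko against Ft1ko. Where few genes of a list passed or failed, they are named, some of them after their values were seen. In Ft1ko against WT 10 of 11 other alveolar type 2 genes rose, with a median log2 fold of 5.04. Slc34a2, which carries phosphate into type 2 cells, rose by 8.40 (SE 2.81) and Abca3, the lipid pump of lamellar bodies, by 1.52 (SE 0.57). In Ft1sm22ko against WT Lpcat1, which makes surfactant lipid, rose by 2.74 (SE 0.43), and Abca3 had a log2 fold of -0.07 (SE 0.24). Chil1 also rose and Napsa and S100g fell there, while 2 genes of the list had no p (median 0.58). Between the mutants 10 of 11 fell in Ft1sm22ko, with a median of -5.57. Of 10 other alveolar type 1 genes 7 rose in Ft1ko (median 3.63), and Hopx, Clic5 and Emp2, which the heart also expresses, did not pass. In Ft1sm22ko Pdpn, Spock2 and Krt7 rose against WT (median 0.98), and between the mutants Rtkn2, Akap5, Gprc5a, Spock2 and Krt7 fell among 9 genes with a p (median -1.80).

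Markers of the conducting airways were counted in the same way. Of all genes tested, 19.7% passed as higher in Ft1ko and 16.2% in Ft1sm22ko against WT, and 9.00% as lower between the mutants. Of 10 other club and airway secretory genes, 8 rose in Ft1ko against WT (median 5.41), with Scgb3a2, a secretoglobin, at 7841.5 normalized counts in Ft1ko hearts and 137 in WT. In Ft1sm22ko against WT the median of 9 genes was 3.77, but 6 had no p, and of the other 3 Cldn10 passed. Scgb3a2 stood at 2575 in Ft1sm22ko and 188 in WT, and Cyp2f2, a cytochrome of club cells, at 1487 in Ft1sm22ko and 77.5 in WT, both with no p. Between the mutants the median was -1.63, and Upk3a was the 1 gene of 8 with a p that fell, near the share of 9.00%. Of 8 genes of ciliated cells 7 rose in Ft1ko (median 3.91), among them Foxj1, the regulator of motile cilia, by 5.54 (SE 1.62). In Ft1sm22ko 7 of the 8 had no p and the eighth, Tppp3, did not pass (median 2.29). Between the mutants 6 had no p and none of the other 2 passed (median -1.91). Of the airway basal and squamous genes Krt14, a basal keratin, rose among 5 with a p in Ft1ko (median 2.45) and among 5 in Ft1sm22ko (median -0.02). These counts lie near the shares of 19.7% and 16.2% over all genes. Krt13, a keratin of squamous epithelia, had log2 folds of -6.65 (SE 3.85) in Ft1ko, without passing, and -5.86 (SE 3.53) in Ft1sm22ko, with no p. Between the mutants none of the 4 basal and squamous genes with a p passed (median -1.66). Of the neuroendocrine genes Calca, Chga and Scg5 rose in Ft1ko, with a WT mean under 1 normalized count for each. In Ft1sm22ko Calca rose among 5 (median 3.11), where 16.2% of all genes did.

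Markers of lung cells that are not epithelial passed the threshold in Ft1ko too. All 7 lung mesenchyme genes rose in Ft1ko (median 5.56), with Tbx4, a regulator of lung bud mesenchyme, at 645 normalized counts in Ft1ko hearts and 2.22 in WT. In Ft1sm22ko Wnt2 and Npnt rose against WT (median 1.93), and between the mutants 6 of 7 fell (median -3.79). Of 8 alveolar macrophage genes 7 rose in Ft1ko (median 3.67), 1, Plet1, in Ft1sm22ko (median 0.67), and Chil3, Krt79, Atp6v0d2 and Itgax fell between the mutants (median -2.44). Over all genes 16.2% passed as higher in Ft1sm22ko against WT. All 12 genes shared by epithelia of many organs rose in Ft1ko (median 5.87), and Krt8, Krt18, Krt19 and Cldn3 rose in Ft1sm22ko, where 5 had no p (median 3.15). Of 7 lung capillary genes 5 rose and Car4, a carbonic anhydrase, fell in Ft1ko (median 1.82), and 4 rose and Car4 fell in Ft1sm22ko (median 1.45), while Prx and Fendrr fell between the mutants (median -0.55). Krt8, a keratin of simple epithelia, had 389 normalized counts in Ft1sm22ko and 28.7 in WT. Of 8 other transcription factors of lung epithelium, Foxa1, Cebpa, Klf5, Sox9 and Elf5 rose in Ft1ko (median 2.43), and Foxa2, Foxp2 and Grhl2 did not pass. Foxa1 rose by 9.12 (SE 1.23), where WT had 0.319 normalized counts on average, which is about 1 in all. In Ft1sm22ko Sox9 rose among 5 with a p (median 0.73), where 16.2% of all genes rose. Between the mutants Sox9 was higher in Ft1sm22ko by 0.63 (SE 0.22), while Cebpa and Grhl2 fell (median -1.75).

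**Figure D4:**
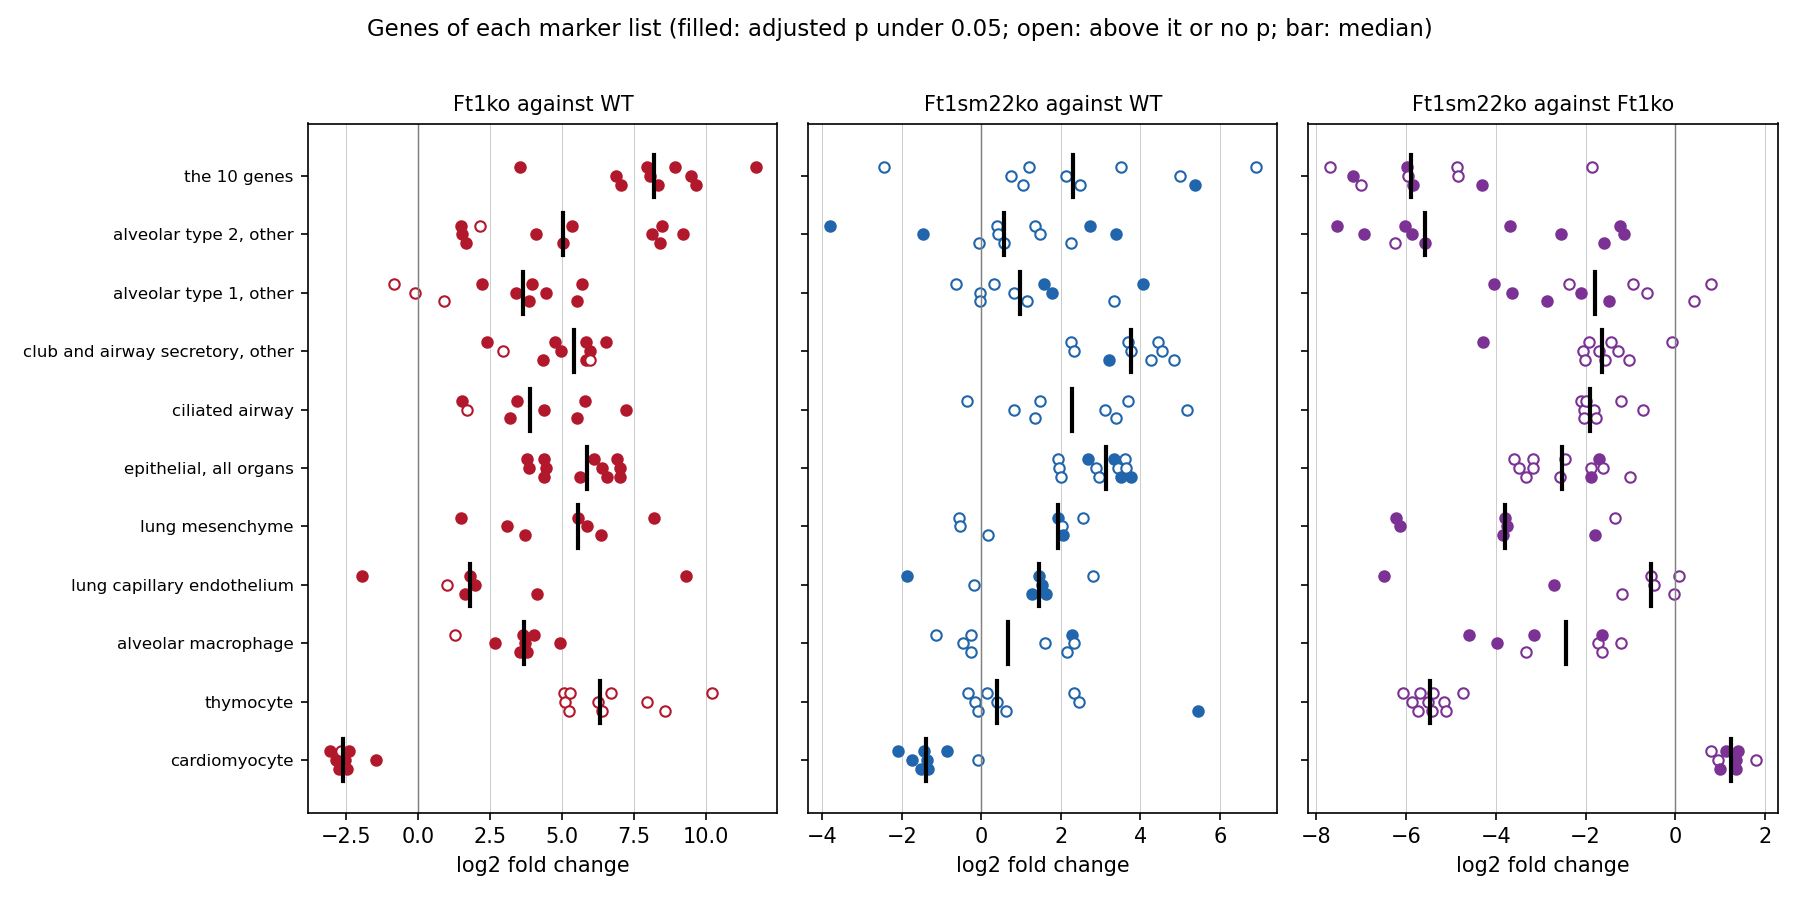
Log2 fold change of every gene of the set and of 10 marker lists (rows) in the 3 comparisons (panels). Points are genes, filled where the adjusted p is under 0.05, and black bars are medians: the set lies at 8.19, 2.31 and -5.90, other club genes at 5.41, 3.77 and -1.63, and cardiomyocyte genes at -2.58, -1.40 and 1.23.

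Markers of other organs were checked beside the set, since some of its genes are also used outside the lung. Of the thyroid, Tg, the hormone precursor, had a log2 fold of 0.99 (SE 0.54) in Ft1ko without passing, and Tshr and Iyd passed. In Ft1sm22ko Tg and Iyd passed. Of 8 stomach genes only 2, Tff2 and Muc5ac, had values, and they rose in Ft1ko by 6.28 (SE 1.29) and 6.73 (SE 1.39). The other genes of that list could not be assessed. Of the 8 liver genes Ahsg and Trf rose in both mutants and Ttr in Ft1sm22ko. Over all genes 19.7% passed as higher in Ft1ko and 16.2% in Ft1sm22ko. Markers of the intestine, salivary gland and kidney included genes that were lower in the mutants than in WT. Lgals4, an intestinal galectin, fell with log2 folds of -3.39 (SE 0.43) in Ft1ko and -2.47 (SE 0.47) in Ft1sm22ko, and Amy1, the salivary amylase, with -3.24 (SE 0.63) and -3.16 (SE 0.63) in the same comparisons. Of the kidney genes Umod and Slc12a1 fell in both mutants. Umod averaged 0.202 normalized counts in Ft1ko hearts and 12.6 in WT, and Slc12a1 averaged 0.917 in Ft1ko hearts and 30.1 in WT. In Ft1sm22ko both genes averaged under 1 normalized count, against 16.7 for Umod and 40.2 for Slc12a1 in WT. Lrp2, an endocytic receptor of kidney tubules, rose by 3.07 (SE 0.65) in Ft1ko and 3.01 (SE 0.60) in Ft1sm22ko. Of 10 thymocyte genes none had a p in Ft1ko against WT or between the mutants, where their medians were 6.33 and -5.47. Their summed mean was 5646 normalized counts in Ft1ko hearts and 82.3 in WT, and 168 in Ft1sm22ko and 111 in WT. The thymus lies in the chest beside the heart, as do the lungs. The part of any other tissue in the values of the 10 genes was not tested.

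Relatives of the set that are known from the heart or from many tissues were measured beside it. Of 21 paralogs 7 rose in Ft1ko against WT, namely Colec10, Colec12, Aqp3, Aqp11, Cldn1, Cldn15 and Lamp2. Colec11, Aqp7, Nkx2-5 and Cldn12 fell there (median 0.68). Over all genes 19.7% rose and 16.1% fell in that comparison. Of 20 paralogs in Ft1sm22ko against WT 5 rose and Aqp7 fell (median 0.30), where 16.2% and 16.0% of all genes did. The counts were not tested against these shares. Psap, a lysosomal relative of Sftpb, had log2 folds of -0.47 (SE 0.31) in Ft1ko and -0.32 (SE 0.25) in Ft1sm22ko, neither of which passed. Aqp1, the water channel of endothelium, had 1721 normalized counts in Ft1ko hearts and 3448 in WT, and did not pass. Lamp1, the common lysosomal protein, had log2 folds of -0.02 (SE 0.42) and 0.25 (SE 0.33) in the same comparisons. Nkx2-5, the heart counterpart of Nkx2-1, fell by 1.30 on the log2 scale (SE 0.48) in Ft1ko.

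The genes nearest to the median pattern of the set were sought among 13740 other genes that averaged 10 normalized counts or more in every table. Likeness was the distance between the 3 log2 folds of a gene and the medians 8.19, 2.31 and -5.90. The nearest 10 were Cd8a, Rag1, Slc34a2, Hc, Chil1, Lyz1, Tcf7, Cxcl15, Hhip and Lef1, at distances of 0.445 to 2.60, while the set's own genes lay at 0.238 (Sftpb) to 6.64 (Ager). Cd8a and Rag1, which thymocytes express, were the closest, with 891 and 1275 normalized counts in Ft1ko against 3.58 and 3.34 in WT, and with 25.6 and 25.1 in Ft1sm22ko against 5.11 and 4.60 in WT. Neither had a p in Ft1ko against WT, whereas all 10 lung genes had one, and both had a p in Ft1sm22ko against WT, whereas 9 of the lung genes had none. Slc34a2, Cxcl15 and Chil1 are on the list of alveolar type 2 genes. Cxcl15, a chemokine of lung epithelium, had 2052 in Ft1ko and 7.29 in WT. Lgi3, which lies 6604 bases from Sftpc and was looked up after the values were seen, had log2 folds of 4.04 (SE 0.98), 0.43 (SE 0.52) and -3.67 (SE 1.06) in the 3 comparisons.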

How the data were processed

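RNA of hearts was sequenced in 3 Ft1ko, 4 Ft1sm22ko and 3 WT male mice of 1 week. The authors extracted it with TRIzol, made stranded libraries with the Universal Plus mRNA-Seq kit, aligned reads with STAR and counted them per gene. The paper and the submitters' processing notes name the reference hg38, although gene names are mouse symbols. The notes also list HTSeq and StringTie, with no versions. The authors fitted DESeq2 to each pair of groups. The deposited mean signal averages the normalized counts of both groups. The deposited fold change and its SE are log2 values. A deposited score, the Wald statistic, comes with a deposited 2-sided p-value, which the authors' tool withholds where 1 heart is extreme. These columns are the authors' own comparison, used because the tables hold nothing per heart, and the authors' adjusted p was not used.

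Group means were computed from the mean, the fold change and the number of hearts. The p-values were adjusted again by Benjamini-Hochberg over the 16748, 16661 and 17169 genes that have one, with a threshold of 0.05. Dispersions were computed from the SE and both means, each at least 0.5. Genes named are the 10 members, Aktip, at most 4 genes of highest mean per marker list and the 10 nearest genes. Further genes of the lists are named where few passed or failed, some of them after their values were seen. Neighbours of the members are marked where they appear. The members and lists were chosen with earlier results of these data known. The p-values test the difference between 2 group means against the spread between the animals of these groups. Depth per library is unknown. Alternatives were another adjustment, filters on mean and fold, centring, and p recomputed from the Wald statistic. Calculations were checked on simulated data and used numpy 2.4.6, pandas 2.3.3, scipy 1.17.1 and matplotlib 3.10.9 in python 3.11.15. Gene places are from GENCODE M21. A gene of the marker lists is not reported here.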

Additional observations from a re-analysis of the deposited data

How the results depend on the processing

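No paired analysis was possible because the tables hold no values per heart, and leaving out each heart in turn was not run for the same reason. With Bonferroni in place of Benjamini-Hochberg adjustment 2 of the 10 genes stayed past the threshold in Ft1ko against WT (Sftpd and Aqp5, against 10), 0 in Ft1sm22ko against WT (against 1) and 1 between the mutants (Ager, against 4). The share of all genes past the Bonferroni threshold was not worked out here. Of the genes of the other lists, without the heart muscle markers and the paralogs, Bonferroni left 42 higher (against 80) and 2 lower (against 5) in Ft1ko, 13 higher (against 27) and 4 lower (against 7) in Ft1sm22ko, and 0 higher (against 1) and 8 lower (against 33) between the mutants. Among genes that averaged 100 normalized counts or more, 0 genes of the set passed in Ft1sm22ko against WT, where the filter leaves out Aqp5, and with a mean of at least 10 or 100 Sftpc joined the 4 lower genes between the mutants. With the p computed from the Wald statistic where none was deposited, Aqp5 stayed the 1 gene of the set past the threshold in Ft1sm22ko against WT, and in the same lists 89 genes (against 80) were higher in Ft1ko, 30 (against 27) in Ft1sm22ko, and 2 (against 1) higher and 42 (against 33) lower between the mutants. A log2 fold of at least 1 and centring on the median gene left each count of the set unchanged. Summed group means depend on the table they are read from: 51614 and 111845 in Ft1ko, 3898 and 6120 in Ft1sm22ko, and 443 and 608 in WT, by each table's own scaling. Group means of Sftpd and Aqp5 in WT rest on about 1 to 3 normalized counts.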
